A study of Arabidopsis thaliana with 18 samples.

Results

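The question was whether Arabidopsis thaliana seedlings that overexpress the transcription factor gene GNL respond to sucrose differently from seedlings that carry mutations in GNL and its close relative GNC. The measure was a difference of differences, the log2 sucrose response of the overexpression line GNLox minus that of the double mutant gnc gnl, over 3 libraries in each of 4 groups, which make 12 of the 18 libraries of the study. Seedlings of all groups were 3 days old, were raised in darkness at 21 °C on 1/2 MS medium (Murashige and Skoog salts at reduced strength), and were in the Columbia ecotype. Without sucrose the medium held salts only (labelled MS), and with sucrose it held 1% (labelled SUC). The third genotype, wild-type Col-0, was grown on both media and appears here as levels only, although its 6 libraries also entered the fit. The labels name 1 overexpression line, and which promoter drives GNL in it is not given in the sources used. Nothing says that the 3 libraries of a group came from separate cultures, and a p-value here reflects only how much these libraries varied, which may be technical.

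GNC and GNL encode B-class GATA factors, zinc-finger proteins that are best known in Arabidopsis for promoting greening and chloroplast development and for acting downstream of light, cytokinin, auxin and gibberellin signals. A seedling in the dark elongates its hypocotyl, keeps its cotyledons closed and lives on the oil and protein stored in the seed until it reaches light. Sugar in the medium relieves that dependence: it is a fuel and also a signal, since the TOR kinase promotes ribosome production and growth when sugar is plentiful, and the SnRK1 kinase switches on starvation genes when it is scarce.

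The 12 libraries held 27362791 to 41342111 total gene reads, and the normalised library sizes behind the CPM ran from 19299957 in GNLox MS replicate 3 to 45483481 in GNLox SUC replicate 3. GNLox MS replicate 3 stood apart in plastid reads: plastid genes took 23.3% of its reads, against 3.44% and 4.95% in the other GNLox MS libraries. Nuclear ribosomal RNA took 25.4% of the reads of replicate 3, ribosomal RNA of any origin 46.7%, and mitochondrial genes 1.13%. Most of its plastid reads were therefore ribosomal RNA. The other groups held 0.915% to 1.55% plastid reads (GNLox SUC), 5.79% to 12.4% (gnc gnl MS) and 2.70% to 5.26% (gnc gnl SUC). Nuclear ribosomal RNA also differed by group. It took 6.19% and 4.96% in the other GNLox MS libraries and 1.00% to 4.40% in GNLox SUC. In gnc gnl it took 11.8% to 23.2% without sucrose and 4.76% to 11.1% with it. The named calls that did not pass without GNLox MS replicate 3 are given with that value at the end. Of 12 flower and pollen markers, tissues that a seedling lacks, 2 to 7 had no read in a library of these 4 groups and the summed level of those tested was 3.65 to 23.1 CPM (reads scaled to the normalised library size).

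GNL read counts followed the labels in GNLox. GNL, on chr4:13253084-13255106 of the files' TAIR10 annotation, stood at 5130, 6290 and 6190 CPM in GNLox without sucrose and at 4460, 5280 and 2840 CPM with it. In gnc gnl it stood at 7.12, 10.6 and 11.1 CPM without sucrose and at 3.89, 5.32 and 3.16 CPM with it. The lines did not overlap on either medium, and the mean was 13.5 CPM and 1.90 CPM in Col-0 without and with sucrose. Reads of the mutant GNL gene fell in introns more often than those of the transgenic line, with 8.65% of 809 reads (Wilson 95% interval 6.91% to 10.8%, counting error only) in gnc gnl MS against 0.0310% of 551239 in GNLox MS. Its sucrose response did not pass the test of the difference (log2 difference 0.74 ± 0.56, SE, edgeR adjusted p = 0.471). GNC, on chr5:22989216-22991530, stood at 9.0 ± 0.426 CPM (SD, n = 3) in gnc gnl and 16.5 ± 4.25 CPM in GNLox without sucrose, and at 5.99 ± 0.633 and 6.03 ± 2.39 CPM with it. Its difference in response did not pass either (−0.86 ± 0.41, edgeR adjusted p = 0.241).

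The sucrose response differed between the lines for 948 of 21903 genes tested (4.33%), at an adjusted p under 0.05 in edgeR's quasi-likelihood test. Of these, 606 (2.77% of genes tested) had a more positive response in GNLox and 342 (1.56%) a more negative one. The sizes of the called differences, sign ignored, ran from 0.28 to 9.83 on the log2 scale, with a median of 0.84. The median of the signed difference over all genes tested was 0.01, where positive and negative values offset each other. In GNLox 11997 genes (54.8%) passed the test of the sucrose response, 6276 upwards (28.7%) and 5721 downwards (26.1%). In gnc gnl 7063 genes (32.2%) passed it, 3925 upwards (17.9%) and 3138 downwards (14.3%). These counts share libraries with the difference and are given side by side only.

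Most of the 948 genes passed the test of the sucrose response in GNLox and not in gnc gnl: these were 540 genes (57.0%), called below changed in GNLox alone, 336 upwards and 204 downwards. Another 272 changed in the same direction in both lines but by more in GNLox, 188 upwards and 84 downwards. A further 74 changed in gnc gnl alone, and 5 changed the same way in both but by more in gnc gnl. Opposite responses were called for 57 genes, 41 that rose in GNLox and fell in gnc gnl and 16 that did the reverse. The lines themselves differed without sucrose only for 547 of the 948 genes, with sucrose only for 256 and on both media for 126, and 102 of those 126 had opposite signs on the 2 media. For background, GNLox and gnc gnl differed in 5483 genes (25.0%) without sucrose and in 4947 genes (22.6%) with it.

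**Figure D1:**
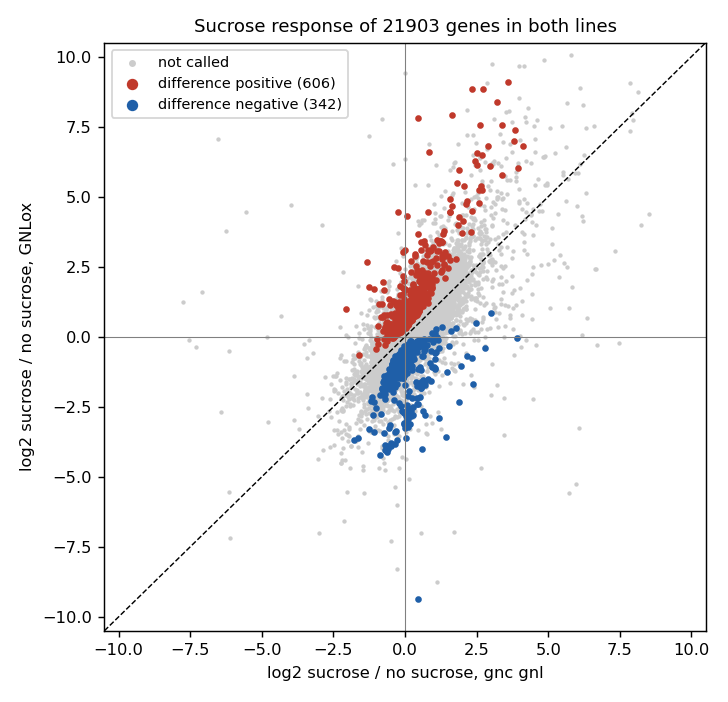
Each point is 1 of 21903 genes, with its log2 sucrose response in gnc gnl on the x axis and in GNLox on the y axis, red where the difference was called positive (606 genes), blue where it was called negative (342) and grey otherwise; 3 genes lie outside the axes. Red points lie above the dashed line of equal response and blue points below it.

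The genes of ribosome production in the nucleolus gave the most calls of the nuclear gene lists. Ribosome biogenesis factors process the ribosomal RNA precursor, guide its modification and assemble the subunits, and they are among the best known targets of sugar and TOR signals. Of 22 genes of the list that were tested, 12 had a more positive response in GNLox (2.77% of all genes did) and none a more negative one, and all 22 had a positive difference, with a median of 0.62 against 0.01 over all genes tested. The median response of the list was 0.45 in GNLox and −0.14 in gnc gnl, and −0.15 in Col-0. In GNLox 17 of the 22 rose with sucrose and none fell, while in gnc gnl 2 rose and 2 fell, beside 28.7% and 17.9% of all genes that rose in the lines. On the medium without sucrose 13 of the 22 were lower in GNLox than in gnc gnl and none was higher, and with sucrose 2 were higher and none lower. The 12 called were NOP56, FIB1, FIB2, NAP57, SWA1, SWA2, NUC1, APUM24, TOZ, PES, EBP1 and BRX1-2, with differences of 0.52 to 1.49.

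Upstream sequence is shown for 3 of the 4 ribosome genes named below, because ribosome genes in plants are known for a shared pair of short promoter motifs, the telo box (AAACCCTA) and site II (TGGGCC or TGGGCT). The 250 bases before the annotated gene start were read from the RefSeq TAIR10.1 assembly and searched on both strands, and the matches are in capitals. The window of NOP56 is chr1:20986953-20987202 on the minus strand, that of FIB1 chr5:21293897-21294146 on the plus strand, and that of NAP57 chr3:21156076-21156325 on the minus strand. The NOP56 window overlaps the neighbouring gene AT1G56120.

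NOP56: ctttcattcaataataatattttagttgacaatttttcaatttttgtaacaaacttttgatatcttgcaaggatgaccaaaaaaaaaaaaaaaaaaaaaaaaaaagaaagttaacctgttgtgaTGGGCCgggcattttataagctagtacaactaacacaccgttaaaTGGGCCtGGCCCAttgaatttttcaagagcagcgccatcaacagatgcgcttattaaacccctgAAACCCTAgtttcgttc

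FIB1: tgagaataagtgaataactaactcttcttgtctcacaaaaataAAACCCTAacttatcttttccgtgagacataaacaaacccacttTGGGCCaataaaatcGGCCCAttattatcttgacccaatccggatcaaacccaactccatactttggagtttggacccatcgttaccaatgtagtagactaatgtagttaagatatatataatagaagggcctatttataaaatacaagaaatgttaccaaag

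NAP57: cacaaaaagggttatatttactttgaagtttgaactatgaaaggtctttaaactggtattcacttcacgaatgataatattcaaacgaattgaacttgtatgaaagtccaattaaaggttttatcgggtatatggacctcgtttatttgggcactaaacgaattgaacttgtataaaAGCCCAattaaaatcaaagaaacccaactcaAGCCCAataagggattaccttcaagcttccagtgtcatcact

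NOP56 held 1 telo box and 3 site II matches, FIB1 held 1 and 2, and NAP57 held 2 site II matches and no telo box. SWA2, the other named gene, held neither in its window, which overlaps the neighbouring gene AT1G72450. Site II matches were found in 9 of the 12 called ribosome biogenesis genes (75.0%), in 15 of the 22 listed (68.2%) and in 4505 of 20963 protein-coding nuclear genes tested (21.5%). The telo box was found in 2 of the 12 (16.7%), in 3 of the 22 listed (13.6%) and in 3.44% of all. It was also found in 3 of 29 genes of the carbon starvation list described below (10.3%), none of them among its 6 called genes. Among the called genes with a positive difference, 50 of 601 windows held a telo box (8.32%) and 180 held a site II match (30.0%), and among those with a negative difference 3 of 282 (1.06%) and 44 of 282 (15.6%) did. These shares describe letters in a window and say nothing about binding.

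NOP56, a core protein of the particles that guide ribosomal RNA methylation, stood at 31.4, 32.8 and 29.9 CPM in GNLox without sucrose and at 73.9, 81.6 and 68.4 CPM with it. In gnc gnl it stood at 56.1, 46.4 and 40.2 CPM without sucrose and at 64.4, 61.2 and 55.4 CPM with it. The GNLox groups did not overlap, and the gnc gnl groups overlapped by 1 library. The log2 difference was 0.91 ± 0.15 (SE, edgeR adjusted p = 0.00732).

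NAP57, the pseudouridine synthase of the companion particles, rose in GNLox alone. It stood at 18.7, 21.9 and 21.0 CPM without sucrose and at 46.2, 57.9 and 44.7 CPM with it in GNLox, against 52.4, 45.2 and 35.1 CPM and 53.6, 54.4 and 45.5 CPM in gnc gnl. Only the GNLox pair was separated. Its difference was 1.06 ± 0.20 (edgeR adjusted p = 0.0122).

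FIB1, the methyltransferase fibrillarin, and SWA2, a large-subunit assembly factor, moved in opposite directions in the lines. FIB1 stood at 107, 104 and 102 CPM in GNLox without sucrose and at 115, 126 and 117 CPM with it, and at 174, 177 and 164 CPM and 136, 131 and 123 CPM in gnc gnl. SWA2 stood at 27.1, 27.6 and 24.9 CPM and then 31.6, 37.1 and 33.0 CPM in GNLox, and at 41.2, 42.3 and 40.2 CPM and then 34.6, 32.0 and 33.4 CPM in gnc gnl. For both genes gnc gnl without sucrose was highest and GNLox without sucrose lowest, and the lines overlapped with sucrose. The differences were 0.59 ± 0.10 for FIB1 (edgeR adjusted p = 0.00811) and 0.66 ± 0.12 for SWA2 (adjusted p = 0.0116), and FIB1 gave 0.59 again in uniquely mapped reads, which matters because a close paralog, FIB2, exists.

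The cytosolic ribosomal proteins, the products these factors assemble, rose in both lines. Of 35 tested, 31 rose and 1 fell in GNLox, and 26 rose and 1 fell in gnc gnl, with median responses of 0.67 and 0.35. The difference was positive for 33 of 35 but was called for only 2, both upwards: RPL4D (0.64 ± 0.13, edgeR adjusted p = 0.0139) and RPL27AC (0.45 ± 0.12, adjusted p = 0.0495). Both proteins belong to families of near-identical copies, so their reads may be shared. Cell-cycle genes had medians of 1.14 in GNLox and 0.63 in gnc gnl, and 1 of 28 was called, a share near the 2.77% of all genes called positive, with 0 to 7 called when 1 library was left out. The called gene was MCM2, a subunit of the DNA replication helicase (0.82 ± 0.20, adjusted p = 0.0345).

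Calls on the ribosome biogenesis list numbered 7 to 13 when any 1 of the 12 libraries was left out, with 7 without gnc gnl MS replicate 1 or replicate 2 and 9 without GNLox MS replicate 3. The 4 named genes were called in all 12 such fits. For RPL27AC and MCM2 the call held in 3 and 5 of the 12 fits, with a highest adjusted p of 0.119 and 0.0922.

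**Figure D2:**
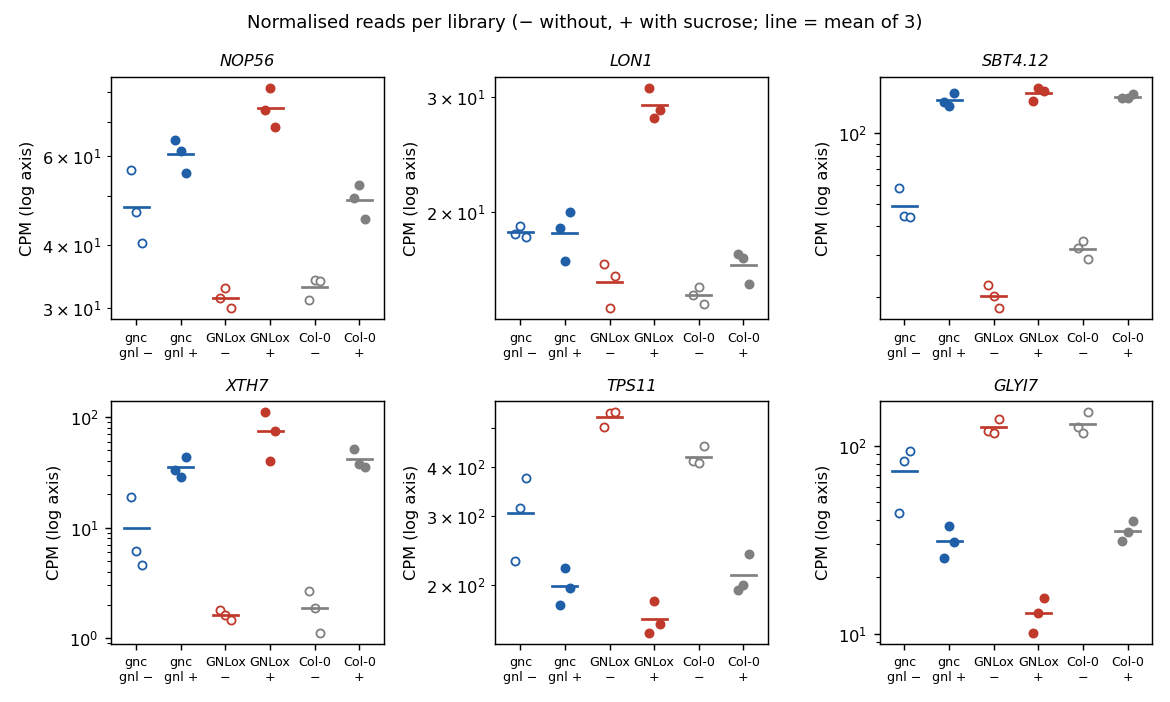
Normalised CPM on a log axis for 6 genes in 6 groups of 3 libraries (open points without sucrose, filled points with it, horizontal line the mean of 3). NOP56, LON1, SBT4.12 and XTH7 rise from a lower start in GNLox, TPS11 and GLYI7 fall from a higher start, and Col-0 is shown as a level only.

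The 6 genes with the smallest adjusted p-values included 2 for proteins of the mitochondrion. LON1, the matrix protease that degrades damaged proteins, stood at 16.6, 14.2 and 15.9 CPM in GNLox without sucrose and at 31.0, 27.9 and 28.7 CPM with it, and at 18.5, 19.0 and 18.3 CPM and 18.9, 16.8 and 20.0 CPM in gnc gnl. Every GNLox library with sucrose lay above all 9 other libraries of these lines. Its difference was 0.91 ± 0.11 (edgeR adjusted p = 0.00448, the smallest value in the comparison, shared by 6 genes).

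PHB6, a prohibitin that scaffolds the inner mitochondrial membrane, started lower in GNLox and approached the level of gnc gnl with sucrose. It stood at 13.4, 13.9 and 11.7 CPM and then 19.6, 20.1 and 21.3 CPM in GNLox, against 25.1, 25.8 and 25.4 CPM and 23.3, 22.8 and 22.8 CPM in gnc gnl. The lines did not overlap on either medium, but with sucrose the difference between them did not pass (edgeR adjusted p = 0.0895). The difference in response was 0.79 ± 0.10 (edgeR adjusted p = 0.00448).

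SBT4.12, a secreted subtilisin-like protease, rose in both lines. It stood at 22.5, 20.2 and 17.8 CPM in GNLox without sucrose and at 138, 156 and 151 CPM with it, and at 58.3, 44.3 and 43.9 CPM and 136, 131 and 149 CPM in gnc gnl. The lines were separated without sucrose and overlapped with it. The difference was 1.37 ± 0.16 (edgeR adjusted p = 0.00448). The remaining members of this group of 6 were EMB2785, described next, AT2G35790 (1.01 ± 0.13) and AT3G02700, which fell in GNLox alone (−0.64 ± 0.08), and all 6 were called in all 12 fits that left out 1 library.

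Sucrose had opposite effects in the 2 lines for 57 genes. EMB2785, annotated in the elongation factor family and named for its embryo-lethal mutant, stood at 20.9, 23.8 and 23.1 CPM in GNLox without sucrose and at 27.7, 27.3 and 28 CPM with it. In gnc gnl it stood at 46.1, 46.0 and 41.0 CPM and then at 31.2, 30.6 and 30.8 CPM. The gap between the lines was narrower with sucrose, where the libraries did not overlap but the difference between the lines did not pass (edgeR adjusted p = 0.137). The difference in response was 0.82 ± 0.11 (edgeR adjusted p = 0.00448).

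GASA14, a gibberellin-regulated cell wall peptide, crossed over. It stood at 221, 222 and 202 CPM and then 347, 261 and 289 CPM in GNLox, against 306, 374 and 370 CPM and 221, 209 and 234 CPM in gnc gnl. GNLox was the lower line without sucrose and the higher with it, with no overlap on either medium (difference 1.14 ± 0.16, edgeR adjusted p = 0.00553). ICP55, a peptidase that trims imported mitochondrial proteins, stood at 9.86, 7.38 and 7.72 CPM and then 14.5, 12.2 and 14.1 CPM in GNLox, and at 9.83, 11 and 10.4 CPM and then 7.98, 7.64 and 8.92 CPM in gnc gnl. The lines overlapped without sucrose and separated with it (1.05 ± 0.16, adjusted p = 0.0059). AT1G10490 (0.74 ± 0.12) and AT1G27470 (0.77 ± 0.12) also rose in GNLox and fell in gnc gnl.

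Among the 16 genes that fell in GNLox and rose in gnc gnl were another gibberellin-regulated peptide and a terpene synthase. GASA4 stood at 1170, 1260 and 1150 CPM in GNLox without sucrose and at 800, 811 and 827 CPM with it. In gnc gnl it stood at 395, 481 and 789 CPM and then at 1340, 868 and 1280 CPM (difference −1.63 ± 0.31, edgeR adjusted p = 0.0124). GNLox held the higher levels without sucrose and the lower levels with it. The difference between the lines passed without sucrose (edgeR adjusted p = 0.00267) and did not pass with it (adjusted p = 0.098). TPS13, the terpene synthase, showed the same crossing (−1.62 ± 0.31, adjusted p = 0.0122), from 10 to 6.70 CPM in GNLox and from 5.50 to 11.3 CPM in gnc gnl (means of 3).

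RTM1, a lectin that restricts movement of a potyvirus, did not differ detectably between the lines without sucrose but was lower in GNLox with it (difference −1.17 ± 0.23, edgeR adjusted p = 0.0137). AT2G42900 (−0.69 ± 0.14) and GSL11, a callose synthase (−0.59 ± 0.12), showed smaller opposite changes. Of these 10 genes, 9 were called in all 12 fits that left out 1 library and GSL11 in 10, with a highest adjusted p of 0.0508.

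**Figure D3:**
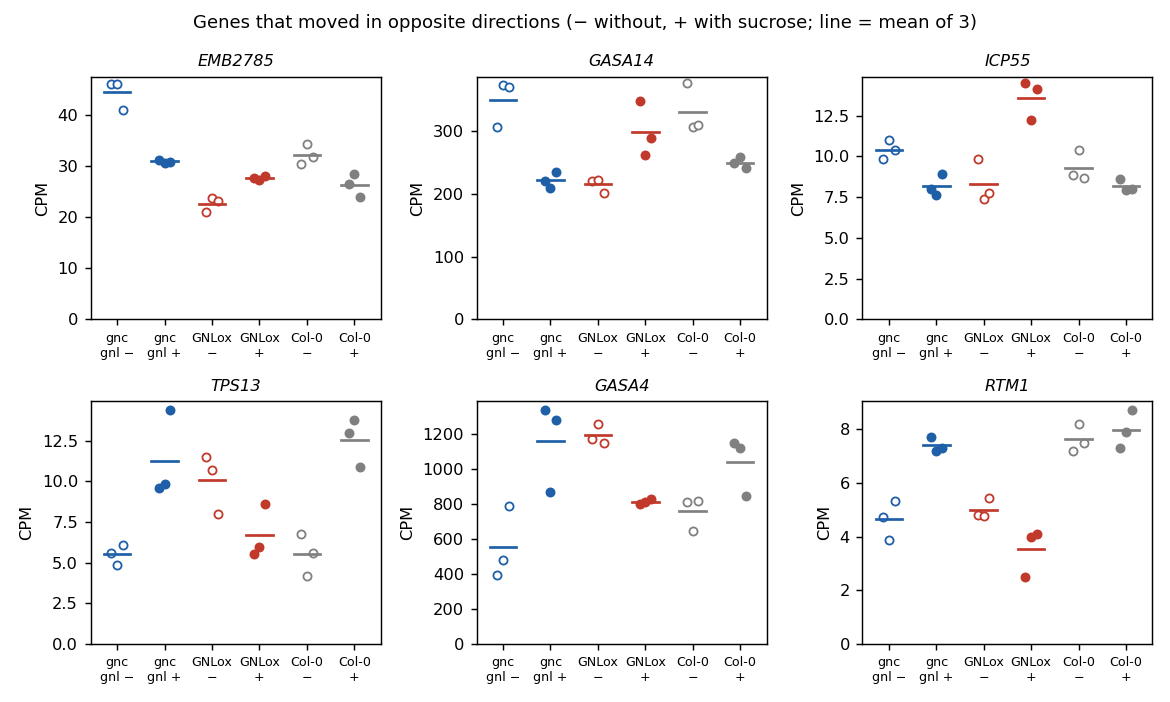
CPM, from 0, of 6 genes whose sucrose responses had opposite signs in the 2 lines, for 6 groups of 3 libraries (open without sucrose, filled with it, line the mean). In the top row GNLox rises and gnc gnl falls, and in the bottom row GNLox falls and gnc gnl rises.

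Root hair genes included LRX1, one of the 8 largest positive differences among called nuclear genes averaging 2 CPM or more over the 12 libraries. Root hair cells extend by tip growth and need a set of wall proteins of their own. Of 20 root hair genes tested, 19 rose in GNLox and 18 in gnc gnl, where 28.7% and 17.9% of all genes rose, with median log2 responses of 5.70 and 3.31, and 4.67 in Col-0. The difference was called for 4, all positive, against 2.77% of all genes (median of the list 2.14). When 1 library was left out the count was 2 in 10 of the 12 fits, 3 without GNLox MS replicate 1 and 6 without GNLox SUC replicate 2. On the medium without sucrose 6 were lower and 1 higher in GNLox. In whole seedlings, fewer cells of a type and less RNA per cell cannot be told apart. Of 21 listed root hair genes 5 to 11 had no read in a GNLox library without sucrose and 1 to 3 in a gnc gnl library, while none was at 0 in any library with sucrose. The summed level of the list did not follow that order: it was 35.1 to 60.6 CPM in GNLox and 26.5 to 33.5 CPM in gnc gnl without sucrose, and in GNLox most of it came from 1 gene in each library.

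LRX1, a leucine-rich repeat extensin of the root hair wall, stood at 0.0745, 0.0280 and 0 CPM in GNLox without sucrose and at 9.51, 5.58 and 10.7 CPM with it. The gnc gnl libraries held 0.748, 0.577 and 0.411 CPM and then 6.53, 6.56 and 5.25 CPM. The lines were separated without sucrose and overlapped with it, and the difference was 4.17 ± 0.81 (edgeR adjusted p = 0.0137).

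RHS18, a peroxidase, and PRP1, a proline-rich wall protein, had no read in any GNLox library without sucrose. With 3 reads over the group as the floor, RHS18 was at least 51.9-fold higher with sucrose and PRP1 at least 37.9-fold higher. For EXPA7, a root hair expansin, 2 reads without and 351 with sucrose gave a ratio of 129 (95% interval 35.6 to 1070, counting error only). The edgeR adjusted p-values of the difference were 0.0153, 0.0489 and 0.0473 for RHS18, PRP1 and EXPA7. The last 2 were each called in 1 of the 12 fits that left out 1 library.

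Other large positive differences came from wall and specialised metabolism genes. GH9C1, an endoglucanase, had 3 reads in GNLox without sucrose and 498 with it (ratio 122, 95% interval 41.6 to 596) and a difference of 3.89 ± 0.76 (edgeR adjusted p = 0.0137). XTH7, a xyloglucan-modifying enzyme, stood at 1.81, 1.62 and 1.45 CPM in GNLox without sucrose and at 110, 39.7 and 75.0 CPM with it, against 18.9, 6.10 and 4.58 CPM and 33.4, 28.5 and 43.1 CPM in gnc gnl. All GNLox libraries lay below those of gnc gnl without sucrose (3.67 ± 0.68, adjusted p = 0.0118). CYP705A5, a cytochrome P450 of the thalianol triterpene cluster of roots, stood at 0.819, 0.335 and 0.622 CPM in GNLox without sucrose and at 52.3, 21.7 and 88.5 CPM with it, while gnc gnl already held 11.1, 6.96 and 14.3 CPM without sucrose. With sucrose gnc gnl held 70.1, 47.8 and 92.1 CPM, overlapping GNLox (3.81 ± 0.83, adjusted p = 0.0212, called in 9 of 12 fits). AT5G38020 (5.50 ± 1.39), AT4G08410 (3.51 ± 0.85) and AT1G66800 (3.3 ± 0.55) completed the 8 largest, of which the first had 1 read in GNLox without sucrose and the last was called in all 12 fits.

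Indole glucosinolate genes, which make tryptophan-derived defence compounds, rose in both lines: 18 of 18 in GNLox and 16 of 18 in gnc gnl, with medians of 1.53 and 1.04. Of all genes tested, 28.7% rose in GNLox and 17.9% in gnc gnl. The difference was called for 4, all positive, beside 2.77% of all genes called positive, and the median of the list was 0.58. CYP81F4, which modifies the indole ring, stood at 1.84, 1.09 and 0.933 CPM in GNLox without sucrose and at 45.9, 23.3 and 53.7 CPM with it. The corresponding gnc gnl levels were 27.3, 11.6 and 9.55 CPM and then 47.5, 46.9 and 50.8 CPM (difference 3.35 ± 0.58, edgeR adjusted p = 0.00815). MYB34, a regulator of the pathway (1.19 ± 0.32), GGP1 (0.73 ± 0.19) and GSTF9 (0.69 ± 0.19) were called in 2 of 12 fits each, and without GNLox MS replicate 3 only CYP81F4 of the list was called. By contrast, 13 of 14 aliphatic glucosinolate genes rose in GNLox and 12 in gnc gnl, and none was called for the difference (median −0.03).

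The phenylpropanoid and flavonoid list had medians of 1.27 in GNLox and 0.73 in gnc gnl, with 25 of 26 differences positive. Of the 26, 2 were called, beside 2.77% of all genes called positive. They were OMT1 (0.78 ± 0.20) and CYP98A3 (0.41 ± 0.10), both enzymes of the lignin route. In the wall list, CESA2 (1.02 ± 0.22) and CESA3 (0.50 ± 0.13), subunits of cellulose synthase, had more positive responses in GNLox. The expansin EXPA4 had the reverse: it stood at 57.6, 68.6 and 62.8 CPM in GNLox without sucrose and at 69.2, 83.1 and 84.9 CPM with it, against 32.9, 34.3 and 34.7 CPM and 130, 86.5 and 134 CPM in gnc gnl. It rose in gnc gnl alone (difference −1.46 ± 0.26, edgeR adjusted p = 0.0093, called in all 12 fits). OMT1, CYP98A3 and CESA3 lost their calls in most fits, CESA2 in 2.

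Genes of carbon starvation had a lower median response in GNLox. In this list, 25 of 29 genes fell and 1 rose with sucrose in GNLox, and 14 fell and 1 rose in gnc gnl, where 26.1% and 14.3% of all genes tested fell, with medians of −1.34 and −0.54 and a Col-0 median of −0.72. All 29 differences were negative (median −0.83), and 6 were called, against 1.56% of all genes called negative: TPS11, DIN4, DIN10, ETFQO, IVD and D2HGDH. Without sucrose 9 of the 29 were higher in GNLox and none lower, and with sucrose 7 were lower and none higher.

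TPS11, a class II trehalose-phosphate synthase-like protein, stood at 505, 547 and 549 CPM in GNLox without sucrose and at 151, 182 and 159 CPM with it. The mutant libraries held 230, 313 and 373 CPM and then 178, 221 and 196 CPM. All 3 GNLox libraries without sucrose lay above the other 9 (difference −1.08 ± 0.21, edgeR adjusted p = 0.0127). It was the only member called in all 12 fits.

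DIN10, a raffinose synthase-like gene induced by darkness, stood at 3380, 3770 and 3610 CPM in GNLox without sucrose and at 948, 1110 and 1100 CPM with it. The gnc gnl levels were 2150, 2290 and 2380 CPM and then 1200, 1780 and 1270 CPM. The libraries of the lines did not overlap on either medium, in opposite order (−1.08 ± 0.25, edgeR adjusted p = 0.0263). The difference between the lines passed without sucrose (edgeR adjusted p = 0.0142) and did not pass with it (adjusted p = 0.0907). DIN4, a subunit of the branched-chain keto acid dehydrogenase (−1.30 ± 0.29, adjusted p = 0.024), and ETFQO, which passes the electrons of that breakdown to ubiquinone (−1.14 ± 0.27, adjusted p = 0.0339), also had more negative responses in GNLox.

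The count on this list depended on single libraries. It was 15 without GNLox MS replicate 1 or without GNLox SUC replicate 2, and 1 without any of GNLox MS replicate 2, GNLox MS replicate 3, GNLox SUC replicate 1, gnc gnl MS replicate 1, gnc gnl MS replicate 2 or gnc gnl SUC replicate 2. Without GNLox SUC replicate 3 or gnc gnl SUC replicate 3 it was 3. The upstream 250 bases of TPS11, chr2:8108648-8108897 on the plus strand of TAIR10.1, are shown with the GATAAG motif, a sequence that contains the GATA core, in capitals on either strand; no G box (CACGTG) was found there.

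TPS11: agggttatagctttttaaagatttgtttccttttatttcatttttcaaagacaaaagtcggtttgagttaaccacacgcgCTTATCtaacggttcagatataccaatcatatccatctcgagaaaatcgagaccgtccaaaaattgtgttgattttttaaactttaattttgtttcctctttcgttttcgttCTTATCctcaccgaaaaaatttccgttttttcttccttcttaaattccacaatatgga

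GATAAG was found in 2600 of 20963 upstream windows (12.4%), in 9 of the 29 carbon starvation genes (31.0%), in 57 of 282 called genes with a negative difference (20.2%) and in 58 of 601 with a positive one (9.65%). Of the 6 called starvation genes, 1 held it.

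Autophagy genes, which deliver cell contents to the vacuole, fell in GNLox for 9 of 13 tested and in gnc gnl for 4, and the difference was called negative for ATG8B (−1.20 ± 0.26), ATG8F (−0.61 ± 0.14) and ATG8E (−0.63 ± 0.15), 3 of the ubiquitin-like tags of the autophagosome. Of all genes tested 26.1% fell in GNLox and 14.3% in gnc gnl, and 1.56% were called negative. None of the 13 was called without GNLox MS replicate 3, GNLox SUC replicate 1, gnc gnl MS replicate 1 or gnc gnl SUC replicate 2, and 1 was called without GNLox MS replicate 2, gnc gnl MS replicate 2 or gnc gnl SUC replicate 3. Genes of seed oil breakdown and the glyoxylate cycle, which turn stored oil into sugar, fell for 14 of 20 in GNLox and 2 of 20 in gnc gnl, with medians of −0.64 and −0.06.

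Of those 20, 4 were called, all negative, beside 1.56% of all genes called negative. MLS, the malate synthase of the glyoxylate cycle, stood at 26.7, 27.0 and 25.6 CPM in GNLox without sucrose and at 5.07, 10.3 and 5.47 CPM with it, but at 35.0, 62.6 and 50.1 CPM and 52.5, 56.6 and 51.8 CPM in gnc gnl. It fell in GNLox alone (−2.05 ± 0.50, edgeR adjusted p = 0.0345). The others were ACX2 (−0.66 ± 0.14) and ACX4 (−0.83 ± 0.22), acyl-CoA oxidases, and SDP1 (−0.59 ± 0.15), the main seed oil lipase. Of these 4, ACX2 alone was called without GNLox MS replicate 3. The list had no call without GNLox MS replicate 2, GNLox SUC replicate 1, gnc gnl MS replicate 1 or gnc gnl SUC replicate 2, and 8 without GNLox MS replicate 1.

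Sugar-handling genes went both ways, with 4 of 35 on the sugar transport and cleavage list called, beside 4.33% of all genes. TPPB, a trehalose-phosphate phosphatase, stood at 0.596, 0.643 and 0.466 CPM in GNLox without sucrose and 5.30, 3.97 and 3.89 CPM with it, and at 2.53, 1.57 and 1.45 CPM and 2.85, 3.65 and 3.02 CPM in gnc gnl, a difference of 2.13 ± 0.34 (edgeR adjusted p = 0.00597). TPS5, another trehalose-phosphate synthase family gene, also had a more positive response (0.98 ± 0.18, adjusted p = 0.0106), and both were called in all 12 fits. SWEET2, a vacuolar sugar transporter (−1.53 ± 0.40), and the vacuolar invertase ATBETAFRUCT4 (−1.36 ± 0.33) had more negative responses, called in 2 and 5 of the fits. BZIP63, a sugar-regulated factor and SnRK1 target, fell in both lines and further in GNLox (−0.62 ± 0.14, called in 7).

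The 8 largest negative differences among called nuclear genes averaging 2 CPM or more were led by NAT4 (−2.83 ± 0.71). NAT4, a nucleobase transporter family member, rose in gnc gnl alone. GLYI7, a glyoxalase, stood at 120, 117 and 139 CPM in GNLox without sucrose and at 10.1, 12.9 and 15.4 CPM with it, against 44.0, 82.7 and 93.8 CPM and 25.2, 37.3 and 30.7 CPM in gnc gnl. GNLox was the higher line without sucrose and the lower with it, with no overlap (−2.04 ± 0.33, edgeR adjusted p = 0.00614). It was the only one of these 8 called in all 12 fits. The others were AT4G05631 (−2.70), AT5G05965 (−2.32), LEA18 (−2.31), MLS, the glutaredoxin GRXC11 (−2.02) and the transcription factor MYB2 (−1.96), with calls in 2 to 6 of the fits.

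**Figure D4:**
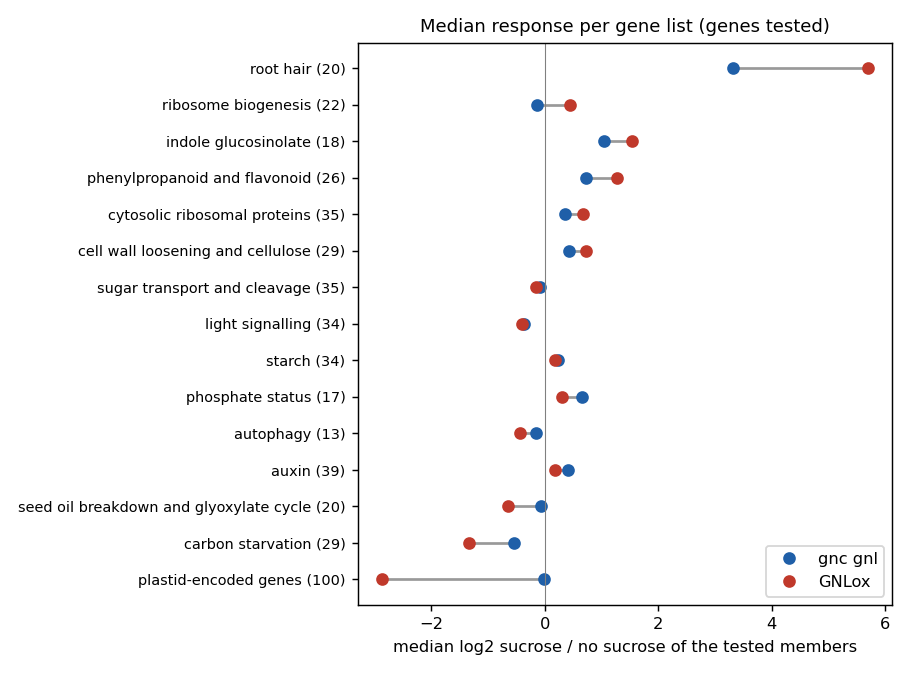
Median log2 sucrose response of the tested members of the 15 lists with at least 2 called genes, in gnc gnl (blue) and GNLox (red), with the number tested in parentheses. The GNLox median lies further from 0 than the gnc gnl median for the root hair, indole glucosinolate, phenylpropanoid and carbon starvation lists, and the 2 medians have opposite signs for ribosome biogenesis.

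Hormone and light lists gave 1 to 3 calls each where they gave any, in both directions. These were 3 of 39 auxin, 3 of 34 light, 1 of 20 cytokinin, 1 of 32 gibberellin and brassinosteroid, 1 of 24 ethylene and 1 of 20 jasmonate genes. Of all genes tested 4.33% were called in either direction, and the lists with 1 call were near that share. YUC5, an auxin synthesis enzyme, stood at 0.174, 0.196 and 0.207 CPM in GNLox without sucrose and at 2.16, 1.57 and 1.87 CPM with it, and at 0.712, 0.494 and 0.285 CPM and 0.576, 0.743 and 1.05 CPM in gnc gnl (difference 2.59 ± 0.47, edgeR adjusted p = 0.0106). The order of the lines reversed with the medium. YUC8, of the same family, fell in GNLox alone (−0.84 ± 0.19, adjusted p = 0.025), and the auxin importer LAX3 rose by more in GNLox (0.67 ± 0.18). ARR3, a cytokinin response regulator, stood at 0.149, 0.112 and 0.207 CPM and then 1.77, 1.35 and 1.76 CPM in GNLox, against 1.67, 0.742 and 0.759 CPM and 1.95, 1.58 and 1.51 CPM in gnc gnl (2.76 ± 0.46, adjusted p = 0.00732).

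In the light list, PAR2, a shade-response repressor of growth, rose in gnc gnl alone, from 7.41, 6.80 and 6.48 CPM to 15.3, 11.9 and 15.9 CPM. In GNLox it stood at 16.6, 13.3 and 13.5 CPM and then 16.0, 14.8 and 16.9 CPM, so gnc gnl overlapped GNLox only with sucrose (difference −0.92 ± 0.18, edgeR adjusted p = 0.0127). PHYB, the red-light receptor, fell in gnc gnl alone (0.47 ± 0.10, adjusted p = 0.021). Other calls were FHY1 (−0.85), GSA1 of tetrapyrrole synthesis (0.46), LHY of the clock (0.98), AOS of jasmonate synthesis (0.84), ACS4 of ethylene synthesis (2.2), SAG101 of immunity (0.58) and SEC31A of the secretory coat (−1.58). All but FHY1 were the only call of their list, of 18 to 28 genes tested. YUC5, ARR3, PAR2 and SAG101 were called in all 12 fits.

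Of 17 phosphate genes tested 3 were called, and of 34 starch genes 3, beside 4.33% of all genes. Among phosphate genes, SRG3, a glycerophosphodiester phosphodiesterase, fell in GNLox alone (−0.84 ± 0.14, edgeR adjusted p = 0.00815). SPX1, a phosphate sensor (−1.16 ± 0.27), and the phosphatase PS2 (−1.98 ± 0.53) rose in gnc gnl alone. In the starch list AMY1, a secreted amylase, rose in gnc gnl alone (−3.96 ± 0.87) from 0.107, 0 and 0.0316 CPM to 0.823, 0.743 and 0.734 CPM, while GPT1 (0.61 ± 0.16), a plastid sugar phosphate importer, and AMY2 (0.97 ± 0.26) had positive differences called in 2 and 1 of the fits.

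Several lists had no call for the difference. No difference was called among 20 light-harvesting antenna genes, 38 photosystem and Calvin cycle genes, 25 abscisic acid response genes, 23 secondary wall genes, 21 endodermis and suberin genes, 21 nitrogen genes, 19 iron genes, 17 heat shock genes, 16 stomatal genes, 12 hypoxia genes or 6 B-GATA genes, although 22 of the 23 secondary wall genes rose in GNLox and 21 in gnc gnl. Antenna genes varied widely between replicates: their summed level was 4750 to 16500 CPM in gnc gnl without sucrose and 3860 to 14300 CPM in GNLox with it. The 13 seed storage genes had a median difference of −2.55 and none called.

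Plastid-encoded genes gave 46 calls of 100 tested, all negative, with median responses of −2.86 in GNLox and −0.01 in gnc gnl. Without GNLox MS replicate 3, the library with 23.3% plastid reads, most of them ribosomal RNA, 2 of the 100 were called and the median difference was −1.69. Without gnc gnl MS replicate 1, or without gnc gnl SUC replicate 3, none was called, and without GNLox MS replicate 1 the count was 75. The part of the unequal plastid and ribosomal RNA shares in these values was not tested. With nuclear genes alone and ribosomal RNA removed, 884 genes were called for the difference, 614 positive and 270 negative.

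**Figure D5:**
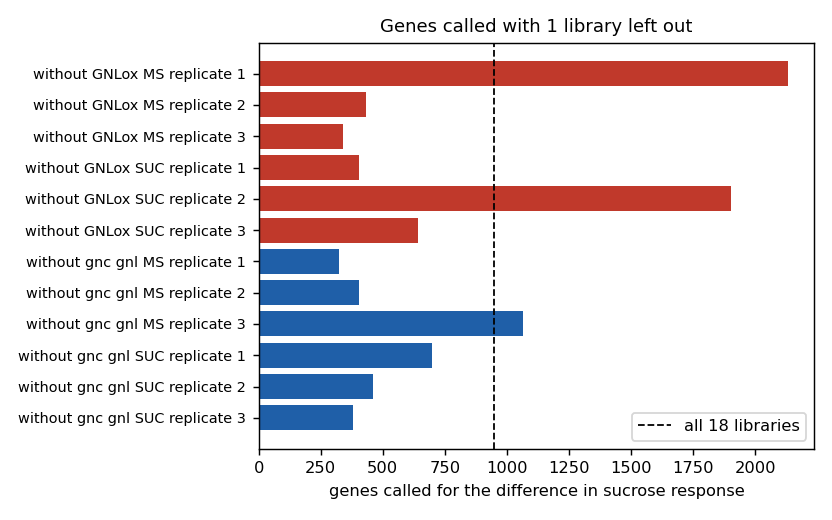
Number of genes called for the difference (x axis) when each of the 12 libraries of the 2 lines was left out in turn, red for GNLox and blue for gnc gnl, with the count from all 18 libraries (948) as a dashed line. The count runs from 323 without gnc gnl MS replicate 1 to 2132 without GNLox MS replicate 1.

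The count of differing genes depended on single libraries. It ran from 323 to 2132 when 1 library was left out, and it was 341 without GNLox MS replicate 3. Of the 948 genes, 266 were called in every one of the 12 fits, 200 positive and 66 negative. Of those 266, 161 changed in GNLox alone and 32 had opposite responses in the lines. Of the 83 named genes that were called, 35 were called in all 12 fits.

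The loss of named calls was similar for several libraries. Of the 83, 46 did not pass without gnc gnl MS replicate 1, and 42 without GNLox MS replicate 2 or GNLox SUC replicate 1. Only 6 did not pass without GNLox MS replicate 1 or GNLox SUC replicate 2. Without GNLox MS replicate 3, 43 of the 83 did not pass. Among the largest differences, edgeR's adjusted p then became, in parentheses, AT5G38020 (0.099), CYP705A5 (0.0568), AT4G08410 (0.0786), NAT4 (0.105), AT4G05631 (0.0967), AT5G05965 (0.126), LEA18 (0.128), MLS (0.0742), GRXC11 (0.0722) and MYB2 (0.0995). For genes of starvation, recycling, oil and sugars it became DIN4 (0.0704), DIN10 (0.0644), ETFQO (0.0932), ATG8B (0.0566), ATG8F (0.0719), ATG8E (0.075), ACX4 (0.105), SDP1 (0.0879), SWEET2 (0.059), ATBETAFRUCT4 (0.0955), AMY1 (0.059), AMY2 (0.0958) and GPT1 (0.105). For growth, wall and root hair genes it became RPL27AC (0.114), MCM2 (0.0862), CESA2 (0.0566), CESA3 (0.0908), EXPA7 (0.111) and PRP1 (0.0932). For the indole glucosinolate and phenylpropanoid lists it became GGP1 (0.106), MYB34 (0.112), GSTF9 (0.105), OMT1 (0.087) and CYP98A3 (0.0939). The rest were FHY1 (0.109), GSA1 (0.0831), LHY (0.0559), AOS (0.0878), YUC8 (0.0513), LAX3 (0.109), SEC31A (0.104), SPX1 (0.064) and PS2 (0.0606). The log2 difference of AT4G05631 went from −2.70 to −1.93.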

How the data were processed

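RNA sequencing libraries of 3-day-old dark-grown seedlings were analysed, 18 in all, with 3 in each of 6 groups. One table per library was deposited; per the file headers it gives read counts per gene (total gene reads, unique gene reads, exon reads and intron reads). Reads were mapped to TAIR10, per the submitters' processing notes. Aligner, counting program, library kit and strand are not given in the sources used, so reads of overlapping antisense genes and of near-identical copies cannot be told apart with confidence.

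The test on total gene reads was that of edgeR 4.0.16 (R 4.3.3). Its low-count filter left 21903 genes (21743 nuclear). Normalisation used TMM. All 18 libraries entered a single robust quasi-likelihood fit with a mean for each of the 6 groups and 12 residual degrees of freedom. P-values were two-sided and adjusted by Benjamini-Hochberg over all genes, with calls under 0.05. Levels are CPM, changes are log2 ratios, and SE is the size of that ratio over the root of its F statistic. In simulated data for this comparison (21539 genes tested), of 50 genes changed by each log2 size, 54% were recovered at 1, 26% at −1, 100% at 2 and 100% at −2, with 6 false calls. The simulated counts had 1 spread for all genes and, apart from the changed genes, the same mean profile in every library. The changed genes averaged over 50 reads. The real libraries were not uniform in this way, so these rates need not hold for them.

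The gene lists (39, with 893 genes) and the comparison itself were chosen with earlier results of these data known. Genes were named by rule: GNL and GNC, the 8 largest positive and 8 largest negative differences of called nuclear genes averaging 2 CPM or more over the 12 libraries, the 5 opposite responses in each direction and the 6 genes with the smallest adjusted p, and up to 4 called genes per list. The other called ribosome biogenesis genes, IVD, D2HGDH and the families in the closing section were named after their values were seen. Gene starts and upstream sequence came from TAIR10.1, in which 32532 of 32548 nuclear genes had the start and end of the files. Alternatives were other size factors, no filter, DESeq2 1.42.0, limma 3.58.1 voom with quality weights, the 12 libraries alone, a replicate block, unique reads, exon reads, nuclear genes without ribosomal RNA, and leaving out each of the 12 libraries. No library was a copy of another in its group (chi-square over its degrees of freedom 20.78 to 724.6).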

Additional observations from a re-analysis of the deposited data

Results flagged for a closer look

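The 2 lines differed in their response to sucrose, by the test of the difference itself (edgeR, adjusted p under 0.05), for 948 genes. The genes below were called in opposite directions in the lines, and each also passed that test. With a positive log2 difference these were EMB2785 (0.82), GASA14 (1.14), ICP55 (1.05), AT1G10490 (0.74) and AT1G27470 (0.77). With a negative one they were TPS13 (−1.62), GASA4 (−1.63), RTM1 (−1.17), AT2G42900 (−0.69) and GSL11 (−0.59). All groups held 3 libraries, too few for an outlier check.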

How the results depend on the processing

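The count of 948 genes called for the difference was 924 with relative log expression size factors, 721 without a filter, 955 in unique reads, 917 in exon reads and 884 in nuclear genes without ribosomal RNA. It moved to 369 when the fit held only the 12 libraries of both lines, where 40 of the 83 named calls did not pass. It moved to 1878 with DESeq2 and to 6432 with limma voom and quality weights. The cause of these moves was not tested. Of the 948 genes, 943 were also called by DESeq2, 943 by voom and 361 in the 12 libraries. Positive differences made up 63.9% of calls, 53.9% with DESeq2, 47.2% with voom and 71.0% in the 12 libraries. With voom, calls for the response in gnc gnl moved from 7063 to 11507, for the lines without sucrose from 5483 to 10285 and with sucrose from 4947 to 8924. Leaving out 1 library gave 323 to 2132 genes for the difference, 10227 to 12366 for the GNLox response, 4626 to 7671 for the gnc gnl response, 3507 to 6008 for the lines without sucrose and 1788 to 6496 with sucrose. The replicate block, a term for the replicate number, gave 1382 genes for the difference, of which 914 were among the 948. Deviations of same-numbered libraries correlated from −0.221 to 0.346, and those of differently numbered libraries from −0.459 to 0.361. Deviations from a mean of 3 libraries cannot settle whether a number marks a shared batch. None of the 83 named calls changed sign under any of these alternatives. With 3 libraries a group, genes with a small or variable difference may have been missed.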

Other observations

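Nuclear genes for other mitochondrial proteins were examined after LON1, PHB6 and ICP55 had been seen, so the families are a description with no test of their own. The mitochondrial stress list, to which LON1 belongs, was less uniform than these families. Of its 8 genes tested, LON1 alone was called and 6 had a positive difference. The differences on that list ran from −2.8 to 0.91, with a median of 0.42. Of all genes tested, 2.77% were called positive, which is the background for each count of positive calls here. The counts include LON1, PHB6 and, in the thalianol cluster, CYP705A5, which were known to be called before the families were examined. In edgeR's test of the difference, all 6 mitochondrial chaperone and protease genes examined (HSP60, HSP60-2, HSP60-3A, mtHsc70-1, MTHSC70-2 and LON1) were called with a more positive sucrose response in GNLox. Their median response was 0.91 in GNLox, 0.12 in gnc gnl and 0.25 in Col-0. HSP60-2 went from 10.7 ± 1.62 to 35.6 ± 3.3 CPM in GNLox (SD, n = 3) and from 16.1 ± 1.56 to 23.1 ± 2.72 CPM in gnc gnl, a difference of 1.21 ± 0.19 (edgeR adjusted p = 0.00597). mtHsc70-1 went from 52.8 ± 7.33 to 101 ± 5.10 CPM and from 70.3 ± 3.3 to 72.3 ± 2.24 CPM (0.89 ± 0.13, adjusted p = 0.00553). All but HSP60, called in 6, were called in all 12 fits that left out 1 library.

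Of 5 prohibitin genes tested 4 were called, all positive and in all 12 fits: PHB1 (0.72 ± 0.13), PHB3 (0.58 ± 0.10), PHB4 (0.81 ± 0.14) and PHB6. Of 6 genes of the MORF family of organelle RNA editing factors, 4 were called positive, MORF1 (0.99 ± 0.15), MORF4 (0.83 ± 0.19), MORF5 (0.60 ± 0.11) and MORF6 (0.67 ± 0.12). The outer and inner membrane import machinery gave 5 positive calls of 28 genes tested, with a median difference of 0.33, led in adjusted p by TIM13 (0.79 ± 0.11, edgeR adjusted p = 0.00522).

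All 4 genes of the thalianol cluster, which CYP705A5 belongs to, had positive differences and 3 were called. CYP708A2 went from 0.914 ± 0.485 to 39.3 ± 17.0 CPM in GNLox and from 7.38 ± 1.11 to 46.7 ± 10.4 CPM in gnc gnl (2.73 ± 0.56, edgeR adjusted p = 0.0178, called in 11 of 12 fits). THAS1, the cluster's cyclase, was not called (1.71 ± 0.62, adjusted p = 0.126). In the marneral cluster, a second root triterpene cluster, 1 of 3 genes was called, CYP71A16 (2.66 ± 0.55), and MRN1 had a negative difference of −0.40 ± 0.85.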
